A study of Homo sapiens with 8 samples.

Results

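The NF-kB subunits and the feedback regulators that hold them in check were followed through ES2 cells, a line labelled as ovarian cancer, with and without knockout of KDM1A and with and without LY500307. The set held 10 genes, chosen by symbol: the subunit genes RELA, NFKB1, NFKB2, RELB and REL, the inhibitor genes NFKBIA and NFKBIE, the deubiquitinase gene TNFAIP3, and the paralogous ubiquitin ligase genes BIRC2 and BIRC3. They were chosen with earlier results of these data known. All 10 were among the 23228 gene symbols counted, and all 10 were among the 13498 genes that passed the filter on low counts. KDM1A, also called LSD1, is an enzyme that strips methyl marks from histones, mainly at lysine 4 of H3, and LY500307 is an agonist of oestrogen receptor beta. The 4 groups were KDM1A knockout cells with LY500307 at 5 µM, KDM1A knockout cells with vehicle, control cells with LY500307 at 5 µM, and control cells with vehicle, each treated for 48 h and each held in 2 libraries. All 4 groups are the same line in the same medium. The sources used here give neither the position of the edit nor whether that population was cloned or pooled, so loss of KDM1A and any other difference between the 2 cell populations cannot be told apart. No source states that duplicate libraries were grown separately. The p-values therefore reflect the spread of these samples alone, and that spread may be technical.

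NF-kB proteins act as dimers. In resting cells, the dimer of RELA and p50, the product of NFKB1, is held in the cytoplasm by inhibitors of the IkB family such as NFKBIA, until the IKK kinases mark the inhibitor for degradation. In the noncanonical branch the kinase NIK, encoded by MAP3K14, triggers processing of the NFKB2 product to p52, which pairs with RELB, and BIRC2 and BIRC3 act with TRAF proteins to keep NIK low. NFKBIA, TNFAIP3, BIRC3, NFKB2 and RELB are textbook NF-kB targets, so their RNA is both a part of the pathway and a readout of it. Messenger RNA does not show where a subunit is in the cell or whether it is bound to DNA.

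Gene counts per library were between 24348937 and 30131097. KDM1A, the targeted gene, stood at 72.0 and 71.6 CPM, the count scaled to library size, in knockout cells with LY500307 and at 75.6 and 77.8 CPM in knockout cells with vehicle, against 238 and 241 CPM in control cells with LY500307 and 220 and 219 CPM in control cells with vehicle. Each knockout library was therefore below every control library, with KDM1A RNA still present. The 10 epithelial and ovarian markers summed to 514–519 CPM in knockout cells with LY500307, 542–550 CPM in knockout cells with vehicle, 728–739 CPM in control cells with LY500307 and 617–621 CPM in control cells with vehicle, nearly all of it KRT7 and KRT18. These keratins moved apart, with KRT7 at 364 CPM in knockout cells with vehicle and 257 CPM in control cells with vehicle (log2 fold change 0.50, adjusted p = 4.47e-12), and KRT18 at 161 CPM in knockout cells with vehicle and 327 CPM in control cells with vehicle (log2 fold change -1.02, adjusted p = 3.38e-20). Of the defining markers, EPCAM averaged 0.564 CPM in knockout cells with vehicle and 1.49 CPM in control cells with vehicle, PAX8 averaged 5.90 and 1.98 CPM in the same groups, and MUC16 had no count in knockout cells with vehicle and 0.0213 CPM in control cells with vehicle. The 7 leukocyte markers, led by LYZ and with CD3E at 0 in every library, summed to 1.26–2.02 CPM in knockout cells with LY500307, 2.23–2.58 CPM in knockout cells with vehicle, 0.594–0.749 CPM in control cells with LY500307 and 0.554–0.555 CPM in control cells with vehicle. The 4 endothelial markers, nearly all CDH5, summed to 25.9–31.4 CPM in knockout cells with LY500307, 32.5–32.6 CPM in knockout cells with vehicle, 82.9–88.4 CPM in control cells with LY500307 and 103–105 CPM in control cells with vehicle, while PECAM1 averaged 0.0669 CPM in knockout cells with vehicle and 0.0853 CPM in control cells with vehicle. The 6 fibroblast and mesothelial markers, nearly all VIM, summed to 9651–9876 CPM in knockout cells with LY500307, 12040–12400 CPM in knockout cells with vehicle, 7386–7623 CPM in control cells with LY500307 and 8465–8712 CPM in control cells with vehicle, with DCN at 0 in both vehicle groups. Single markers of this last list moved apart. With vehicle, 3 of its 4 tested markers were called higher in knockout cells and 1 lower, against 30.7% and 33.3% of all genes tested. PDGFRB was the lower one, at 0.128 CPM in knockout cells with vehicle and 0.8955 CPM in control cells with vehicle (adjusted p = 3.05e-05). LUM averaged 1.48 and 0.0426 CPM in the same groups (adjusted p = 6.45e-08). Each of the marker sums differed between knockout and control libraries under either treatment, but not every single marker did. Under LY500307, KRT7 averaged 354 CPM in knockout cells and 335.5 CPM in control cells (adjusted p = 0.11). EPCAM averaged 0.491 and 0.441 CPM in the same groups (adjusted p = 0.819). The part of the markers in the results below was not tested. In such bulk RNA, fewer cells of a type and less RNA per cell cannot be told apart.

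The stretches around the transcription starts of 5 members are given first, BIRC3, TNFAIP3, NFKBIA and NFKB2 as textbook NF-kB targets and BIRC2 for contrast. Binding of NF-kB was not measured here. Of the 10 members, 8 matched RefSeq entries (build GRCh38.p14) that run from 250 bases before to 50 bases after a start, and RELB and NFKBIE had no entry. Capitals mark matches to the kappa B consensus, the 10-base motif of NF-kB sites, searched on both strands. The BIRC3 promoter lies at chr11:102317234-102317533 on the plus strand, that of TNFAIP3 at chr6:137867009-137867308 on the plus strand, that of NFKBIA at chr14:35404700-35404999 on the minus strand, the second NFKB2 start at chr10:102394328-102394627 on the plus strand, and the first BIRC2 start, which holds no match and is shown for contrast with its paralogue, at chr11:102346964-102347263 on the plus strand.
BIRC3: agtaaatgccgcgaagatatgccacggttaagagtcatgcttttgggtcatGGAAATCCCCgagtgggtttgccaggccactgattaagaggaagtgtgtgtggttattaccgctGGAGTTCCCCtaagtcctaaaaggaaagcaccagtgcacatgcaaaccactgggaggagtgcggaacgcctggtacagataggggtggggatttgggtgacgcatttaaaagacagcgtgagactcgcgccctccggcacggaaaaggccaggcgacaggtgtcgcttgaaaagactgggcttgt
TNFAIP3: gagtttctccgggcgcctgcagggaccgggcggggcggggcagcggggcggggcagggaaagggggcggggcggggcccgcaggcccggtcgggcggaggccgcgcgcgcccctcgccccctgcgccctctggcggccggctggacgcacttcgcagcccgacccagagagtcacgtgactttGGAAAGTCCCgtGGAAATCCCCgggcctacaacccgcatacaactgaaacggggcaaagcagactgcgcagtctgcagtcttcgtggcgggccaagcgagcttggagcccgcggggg
NFKBIA: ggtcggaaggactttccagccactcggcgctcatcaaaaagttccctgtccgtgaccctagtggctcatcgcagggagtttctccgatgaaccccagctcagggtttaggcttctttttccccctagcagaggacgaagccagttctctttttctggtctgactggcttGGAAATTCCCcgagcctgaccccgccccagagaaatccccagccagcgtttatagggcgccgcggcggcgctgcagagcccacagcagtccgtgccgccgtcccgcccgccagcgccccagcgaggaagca
NFKB2: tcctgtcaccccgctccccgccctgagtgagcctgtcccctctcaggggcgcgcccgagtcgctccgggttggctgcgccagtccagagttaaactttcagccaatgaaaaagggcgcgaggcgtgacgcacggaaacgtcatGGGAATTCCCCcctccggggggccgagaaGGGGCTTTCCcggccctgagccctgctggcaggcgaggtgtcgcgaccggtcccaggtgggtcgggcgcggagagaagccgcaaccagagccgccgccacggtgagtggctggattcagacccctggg
BIRC2: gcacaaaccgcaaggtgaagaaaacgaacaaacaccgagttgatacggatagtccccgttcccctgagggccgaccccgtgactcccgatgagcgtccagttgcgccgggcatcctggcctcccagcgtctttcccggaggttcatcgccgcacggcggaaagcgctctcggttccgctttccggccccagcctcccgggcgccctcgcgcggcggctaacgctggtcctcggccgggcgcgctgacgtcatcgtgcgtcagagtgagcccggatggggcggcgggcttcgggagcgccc

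The kappa B consensus was found in the promoters of 6 of the 8 members with an entry, namely NFKB1, NFKB2, REL, NFKBIA, TNFAIP3 and BIRC3, and in 13.3% of the 27305 genes with a promoter entry. RELA and BIRC2 held no match in these windows. Counted in bases from the start, the BIRC3 matches run from -199 to -190 and from -135 to -126, and those of TNFAIP3 lie closer, from -67 to -58 and from -55 to -46. The NFKBIA match runs from -81 to -72 and the NFKB1 match, GGGAATTTCC, from -49 to -40. The second NFKB2 start has GGGAATTCCC from -107 to -98, a match on both strands that overlaps a further one on the minus strand, and GGGGCTTTCC from -78 to -69. The letters of the full consensus oestrogen response element were in none of the 8 and in 0.0732% of all genes, and those of the AP-1 site, TGANTCA, were in none of the 8 and in 9.37% of all genes. The letters of a TATA box, TATAAA, were found on either strand in 14% of all genes. In the NFKBIA window they run from -33 to -28 on the strand opposite to the gene, and read TTTATA in the stretch above. A match is a run of letters and not a shown binding site, and the absence of a match says only that these letters are not in this window.

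**Figure D1:**
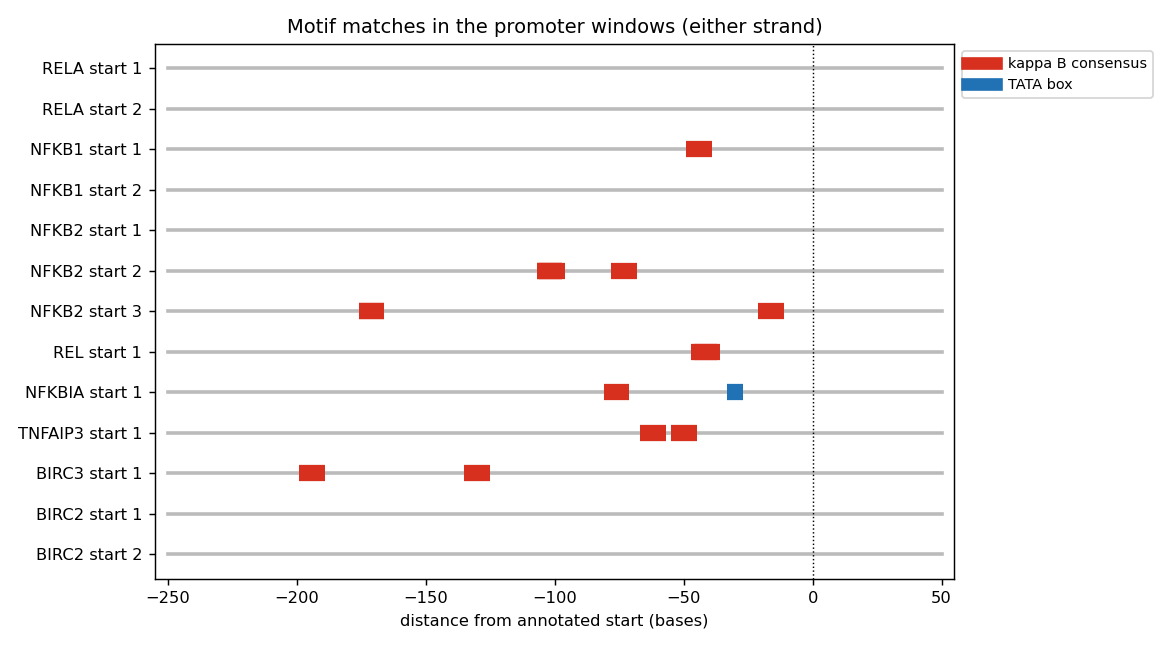
Motif matches along the promoter windows of the members with a RefSeq entry, 1 line per annotated start, against the distance from that start in bases. Red bars are matches to the kappa B consensus, all before the start and the farthest beginning at -199. The blue bar is the match to the TATA box letters in the NFKBIA window, on the strand opposite to the gene.

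In the vehicle-treated cells, 8 of the 10 members were higher in knockout cells than in control cells, against 30.7% of all genes tested that were called higher. Because the members were chosen with earlier results of these data known, such shares, here and below, are not an unbiased comparison. The median log2 fold change of the members was 0.63 and that of all genes tested was -0.012. The largest changes were those of the feedback genes BIRC3, TNFAIP3 and RELB. REL and NFKBIE did not pass the test. The calls come from quasi-likelihood tests in edgeR, with Benjamini-Hochberg adjustment across the whole table and a threshold of 0.05. In 9 of the 10 members both knockout libraries lay above both control libraries, against 39.5% of all genes tested, and in 1, NFKBIE, both lay below, against 41.8%. The same number of members, 8, was called by DESeq2 and by limma-voom. At an unadjusted p under 0.05, edgeR placed 9 members higher and 0 lower in knockout cells. Of all 13498 genes tested, 9047 had such an unadjusted p in either direction. The adjusted count of members lower was 0 with all 3 tools, against 33.3% of all genes tested by edgeR.

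Among the subunits, RELA, which carries the strong activation domain of the classical dimer, had 186 and 197 CPM in knockout cells with vehicle, against 167 and 166 CPM in control cells with vehicle. The groups did not overlap, and the difference was small, with a log2 fold change of 0.21 (SE 0.0491, adjusted p = 0.000416). NFKB1, the p105 and p50 gene, had 57.3 and 60.2 CPM in knockout cells with vehicle, against 47.3 and 49.4 CPM in control cells with vehicle. Both knockout libraries lay above both control libraries, with a log2 fold change of 0.28 (SE 0.0647, adjusted p = 0.000284). NFKB2, the p100 and p52 gene, had 75.2 and 75.8 CPM in knockout cells with vehicle, against 42.7 and 44.8 CPM in control cells with vehicle. The duplicates sat close together in each group and the groups stood well apart, with a log2 fold change of 0.79 (SE 0.0629, adjusted p = 3.91e-13). RELB, the partner of p52, had 16.4 and 16.4 CPM in knockout cells with vehicle, against 7.12 and 7.34 CPM in control cells with vehicle. Its knockout libraries were more than 2-fold above its control libraries, the largest rise of any subunit, with a log2 fold change of 1.18 (SE 0.116, adjusted p = 6.93e-11). REL, the subunit best known from lymphocytes, had 3.56 and 3.15 CPM in knockout cells with vehicle, against 2.73 and 2.22 CPM in control cells with vehicle. The knockout libraries were again the higher ones, but with only 52 to 94 counts a library the log2 fold change of 0.43 (95% interval 0.01 to 0.86) had an adjusted p of 0.0701. REL passed the test when library totals replaced the TMM scaling (adjusted p = 0.0456) and when the median change of its chromosome arm was removed (adjusted p = 0.0233).

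The inhibitor genes parted from each other. NFKBIA, which encodes the main IkB protein that traps RELA dimers and is itself switched on by them, had 35.8 and 36.3 CPM in knockout cells with vehicle, against 19.99 and 23.6 CPM in control cells with vehicle. Every knockout library was above every control library, with a log2 fold change of 0.73 (SE 0.0859, adjusted p = 4.21e-09). NFKBIA lies at 14:35870285-35873955 (GRCh37), and genes of chromosome arm 14q had a median log2 fold change of 0.30 in this comparison. With that median removed, the log2 fold change of NFKBIA was 0.43 (adjusted p = 6.79e-05). NFKBIE, a slower-acting IkB protein, had 8.18 and 8.23 CPM in knockout cells with vehicle, against 8.65 and 8.92 CPM in control cells with vehicle. The knockout libraries were slightly the lower ones, and the log2 fold change of -0.10 (95% interval -0.35 to 0.16) had an adjusted p of 0.504.

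Of the ubiquitin regulators, TNFAIP3 and BIRC3 had larger log2 fold changes than BIRC2. TNFAIP3, which encodes the enzyme A20 that trims ubiquitin chains from the signalling complexes upstream of IKK, had 39.0 and 39.5 CPM in knockout cells with vehicle, against 17.6 and 16.7 CPM in control cells with vehicle. The groups were more than 2-fold apart and the duplicates nearly equal, with a log2 fold change of 1.19 (SE 0.0825, adjusted p = 8.6e-15). BIRC3, the ubiquitin ligase cIAP2, had 27.6 and 24.9 CPM in knockout cells with vehicle, against 8.14 and 8.57 CPM in control cells with vehicle. The knockout libraries were 3.13-fold higher, with a log2 fold change of 1.65 (SE 0.101, adjusted p = 3.52e-16). BIRC2, the ligase cIAP1 and neighbour of BIRC3 on chromosome 11, had 388 and 390 CPM in knockout cells with vehicle, against 274 and 265 CPM in control cells with vehicle. Both knockout libraries were well above both control libraries, and the log2 fold change of 0.53 (SE 0.0439, adjusted p = 1.01e-12) was smaller than that of BIRC3. Reads that aligned to several places were not counted, so stretches shared by these paralogues would be missing from both.

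**Figure D2:**
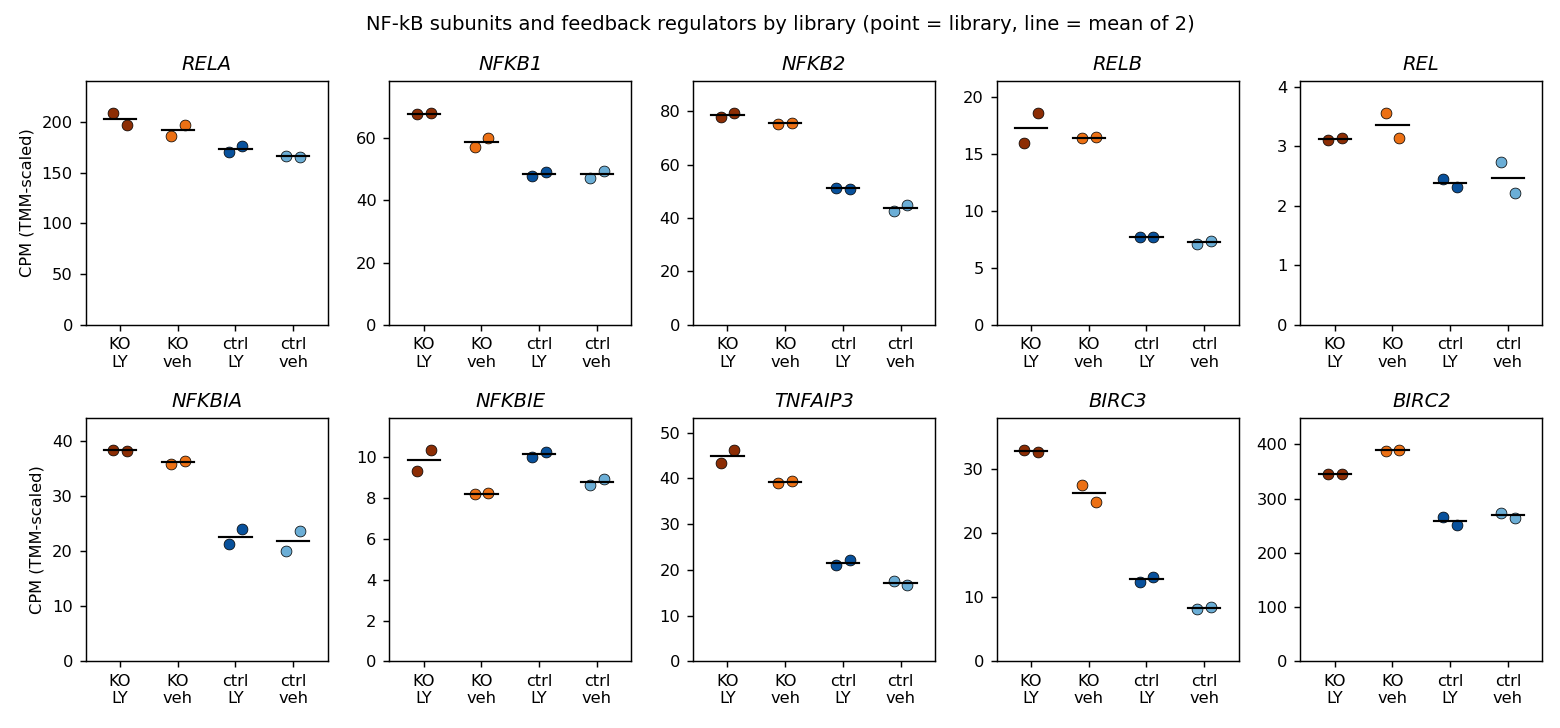
Level of each member in CPM on linear axes that begin at 0, with 1 point per library and a line at the mean of the 2 libraries of a group (KO, KDM1A knockout; ctrl, control; LY, LY500307; veh, vehicle). BIRC3, TNFAIP3, RELB, NFKB2 and NFKBIA are higher in the knockout libraries under either treatment, and NFKBIE is not.

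Under LY500307, the knockout comparison set other libraries of the same cell populations against each other, within the same fitted model. Any other difference between these populations would recur here, so this was not an independent repeat. Of the 10 members, 8 were higher in knockout cells, against 32.6% of all genes tested, and the median log2 fold change of the members was 0.55 against -0.005 for all genes. At an unadjusted p under 0.05, edgeR placed 8 members higher and 0 lower, where 9286 of all 13498 genes tested had such a p in either direction. After adjustment, 0 members and 33.6% of all genes tested were called lower. The libraries of 9 members stood wholly above those of control cells, against 40.1% of all genes tested. BIRC3 had 33.1 and 32.7 CPM in knockout cells with LY500307, against 12.5 and 13.1 CPM in control cells with LY500307. The groups did not overlap, and the log2 fold change was 1.36 (SE 0.0903, adjusted p = 2.74e-15). RELB had 15.97 and 18.6 CPM in knockout cells with LY500307, against 7.69 and 7.67 CPM in control cells with LY500307. Its knockout duplicates were less alike than with vehicle, yet both were far above the control libraries, with a log2 fold change of 1.17 (SE 0.111, adjusted p = 2.57e-11). TNFAIP3 had 43.3 and 46.3 CPM in knockout cells with LY500307, against 21.0 and 22.1 CPM in control cells with LY500307. Both knockout libraries were close to 2-fold higher, with a log2 fold change of 1.06 (SE 0.0774, adjusted p = 3.65e-14).

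The other 5 members called under LY500307 had smaller changes. NFKBIA had 38.4 and 38.2 CPM in knockout cells with LY500307, against 21.2 and 23.9 CPM in control cells with LY500307, a log2 fold change of 0.76 (adjusted p = 6.91e-10) that was 0.45 with the median of arm 14q removed. NFKB2 had 77.8 and 79.5 CPM in knockout cells with LY500307, against 51.4 and 50.8 CPM in control cells with LY500307, a log2 fold change of 0.62 (adjusted p = 5.78e-11). In both genes every knockout library was above every control library. NFKB1 had 67.8 and 68.2 CPM in knockout cells with LY500307, against 47.9 and 49.0 CPM in control cells with LY500307, a log2 fold change of 0.49 (adjusted p = 2.52e-08). BIRC2 had 345 and 346 CPM in knockout cells with LY500307, against 266 and 251 CPM in control cells with LY500307, a log2 fold change of 0.42 (adjusted p = 2.95e-10). RELA had 209 and 197 CPM in knockout cells with LY500307, against 171 and 177 CPM in control cells with LY500307, a log2 fold change of 0.22 (adjusted p = 0.000136). None of these 3 overlapped between knockout and control libraries. REL had 3.11 and 3.14 CPM in knockout cells with LY500307, against 2.45 and 2.32 CPM in control cells with LY500307 (adjusted p = 0.0927). NFKBIE had 9.34 and 10.4 CPM in knockout cells with LY500307, against 10.0 and 10.2 CPM in control cells with LY500307 (adjusted p = 0.785), and it was the only member whose knockout and control libraries overlapped under LY500307.

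LY500307 itself was followed by changes in fewer members. In control cells, 3 of the 10 members, BIRC3, TNFAIP3 and NFKB2, were higher with LY500307 than with vehicle, against 12.3% of all genes tested. At an unadjusted p under 0.05 edgeR placed 3 higher and 0 lower, where 5042 of all 13498 genes tested had such a p in either direction. After adjustment, edgeR, DESeq2 and limma-voom each called 3 higher and 0 lower. By edgeR, 14.0% of all genes tested were called lower. In 6 of the 10 members both LY500307 libraries lay above both vehicle libraries, against 32.1% of all genes tested. Members had a median log2 fold change of 0.08 and all genes a median of 0.0052. BIRC3 had 12.5 and 13.1 CPM in control cells with LY500307, against 8.14 and 8.57 CPM in control cells with vehicle. The 2 groups did not overlap and were 1.53-fold apart, with a log2 fold change of 0.61 (SE 0.109, adjusted p = 7.29e-05). TNFAIP3 had 21.0 and 22.1 CPM in control cells with LY500307, against 17.6 and 16.7 CPM in control cells with vehicle, a log2 fold change of 0.33 (SE 0.0869, adjusted p = 0.0052). NFKB2 had 51.4 and 50.8 CPM in control cells with LY500307, against 42.7 and 44.8 CPM in control cells with vehicle, a log2 fold change of 0.23 (SE 0.0643, adjusted p = 0.00899). The libraries of both genes stood apart by treatment, but each call rested on single libraries. TNFAIP3 lost its call without the second vehicle library (adjusted p = 0.0671) or the second LY500307 library (adjusted p = 0.0629). NFKB2 lost its call without the first vehicle library (adjusted p = 0.0975) or the first LY500307 library (adjusted p = 0.0606). The other 7 members had log2 fold changes from -0.06 for BIRC2 to 0.21 for NFKBIE and did not pass the test. With library totals in place of TMM, RELA was called as well (log2 fold change 0.14, adjusted p = 0.0329), and over all genes 2831 were then called higher and 1011 lower, against 1665 and 1885 with TMM.

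In knockout cells, LY500307 was followed by higher BIRC3 and NFKB1 and lower BIRC2, that is 2 members higher against 9.16% of all genes tested and 1 lower against 11.3%. In 6 members both LY500307 libraries lay above both vehicle libraries, against 30.6% of all genes tested, and in 2, REL and BIRC2, both lay below, against 27.8% of all genes tested. BIRC3 had 33.1 and 32.7 CPM in knockout cells with LY500307, against 27.6 and 24.9 CPM in knockout cells with vehicle. The groups did not overlap, with a log2 fold change of 0.33 (SE 0.0837, adjusted p = 0.00441), but the call was lost without the second vehicle library (adjusted p = 0.129). NFKB1 had 67.8 and 68.2 CPM in knockout cells with LY500307, against 57.3 and 60.2 CPM in knockout cells with vehicle. Its log2 fold change was 0.21 (SE 0.0622, adjusted p = 0.0146), and the call was lost without the first vehicle library (adjusted p = 0.143), the first LY500307 library (adjusted p = 0.0659) or the second LY500307 library (adjusted p = 0.0669). BIRC2 had 345 and 346 CPM in knockout cells with LY500307, against 388 and 390 CPM in knockout cells with vehicle. It was the only member called lower in any comparison, with a log2 fold change of -0.17 (SE 0.0434, adjusted p = 0.00404), and it missed the threshold with library totals (-0.11, adjusted p = 0.0528). TNFAIP3 had 43.3 and 46.3 CPM in knockout cells with LY500307, against 39.0 and 39.5 CPM in knockout cells with vehicle, a log2 fold change of 0.19 (adjusted p = 0.0589). TNFAIP3 passed the test with limma-voom (adjusted p = 0.043) and with library totals (adjusted p = 0.0122). With library totals, RELA (adjusted p = 0.0306) and NFKBIE (adjusted p = 0.047) were also called higher, and over all genes 2288 were called higher and 953 lower.

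**Figure D3:**
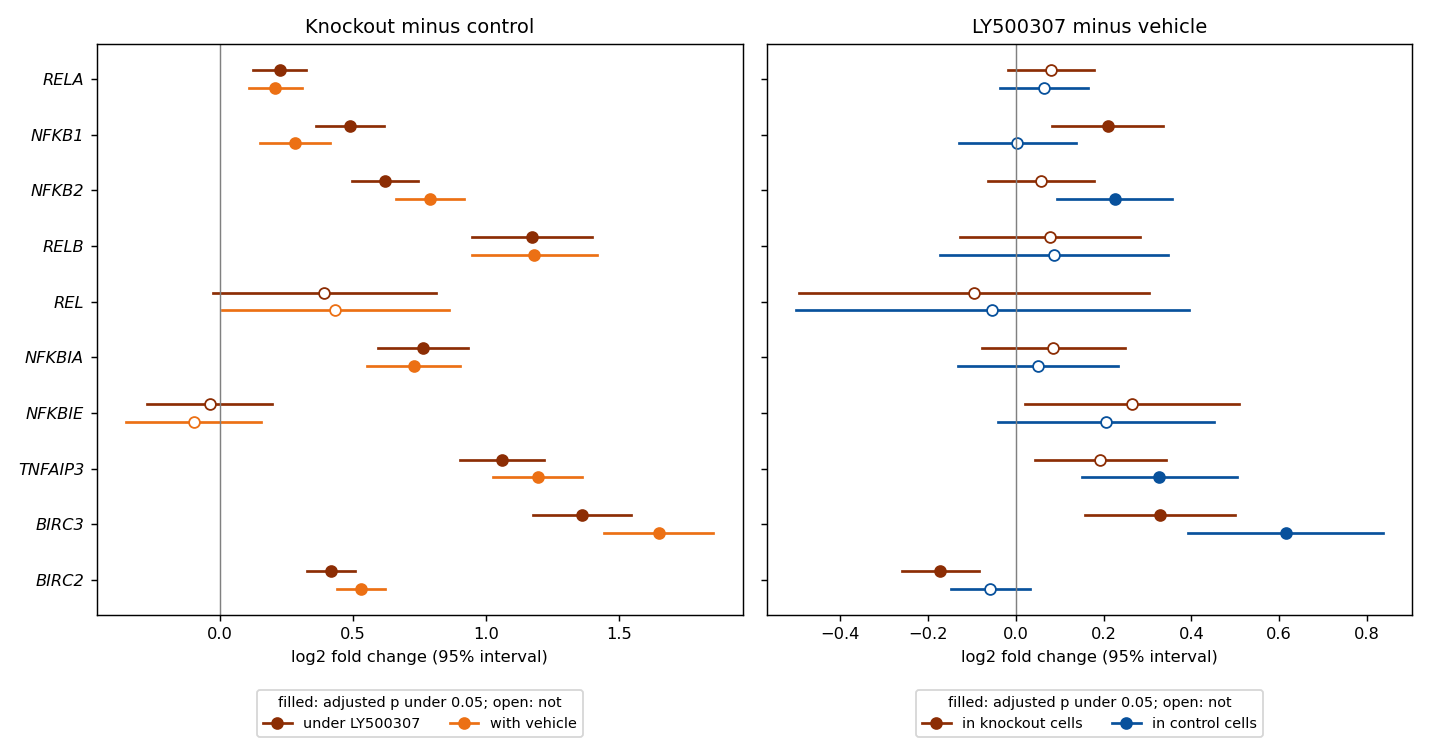
Log2 fold changes of the members with 95% intervals from the edgeR fit, knockout minus control on the left and LY500307 minus vehicle on the right. Filled points have an adjusted p under 0.05. On the left, 9 members lie right of 0 under either treatment, 8 of them filled, with BIRC3 farthest right. On the right, most intervals cross 0.

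Whether the change with LY500307 differed between knockout and control cells was tested as an interaction. A negative value means that the signed log2 fold change with LY500307 was lower in knockout cells than in control cells. By edgeR 0 of the 10 members passed, against 1.62% of all genes tested called in either direction. At an unadjusted p under 0.05, edgeR placed 1 member higher (NFKB1) and 1 lower (BIRC3), DESeq2 placed 0 and limma-voom placed 1 higher. By edgeR, 1950 of all 13498 genes tested had an unadjusted p under 0.05 for the interaction, in either direction. DESeq2 and limma-voom also called 0 members after adjustment. BIRC3 had an interaction of -0.29 on the log2 scale (95% interval -0.57 to -0.01, adjusted p = 0.334). NFKB1 had an interaction of 0.21 (95% interval 0.02 to 0.39, adjusted p = 0.272). The change of BIRC3 with LY500307 was thus not shown to differ between the cell populations after adjustment, though its unadjusted interval lay below 0.

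With both factors together, knockout cells with LY500307 were set against control cells with vehicle, a comparison that shares libraries with those above. There 8 of the 10 members were higher, against 33.1% of all genes tested, and all 10 had both knockout libraries above both control libraries, against 40.6% of all genes tested. At an unadjusted p under 0.05 edgeR placed 8 members higher and 0 lower, where 9497 of all 13498 genes tested had such a p in either direction. After adjustment, 0 members and 34.8% of all genes tested were called lower. BIRC3 was 3.93-fold higher, with 33.1 and 32.7 CPM in knockout cells with LY500307, against 8.14 and 8.57 CPM in control cells with vehicle (log2 fold change 1.98, SE 0.0991, adjusted p = 9.17e-19). TNFAIP3 had a log2 fold change of 1.39 (SE 0.0816, adjusted p = 8.76e-17), RELB of 1.26 (SE 0.115, adjusted p = 1.03e-11), NFKB2 of 0.85 (SE 0.0627, adjusted p = 4.58e-14) and NFKBIA of 0.81 (SE 0.0854, adjusted p = 2.57e-10). NFKBIA was at 0.50 with the median of arm 14q removed. BIRC2 had a log2 fold change of 0.36, below its value of 0.53 for the knockout with vehicle. REL (0.34, adjusted p = 0.156) and NFKBIE (0.17, adjusted p = 0.225) did not pass the test, though NFKBIE passed with library totals (0.27, adjusted p = 0.0471).

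Across the 4 groups, 7 members shared one order of means, lowest in control cells with vehicle, then control cells with LY500307, knockout cells with vehicle and knockout cells with LY500307. These were NFKB1, NFKB2, RELA, RELB, NFKBIA, TNFAIP3 and BIRC3, and 14.4% of all genes tested had this order. Libraries of neighbouring groups in this order did not overlap at any step for NFKB2, TNFAIP3 and BIRC3, as for 5.13% of all genes tested. The last step, from vehicle to LY500307 in knockout cells, did not pass the edgeR test for NFKB2 (log2 fold change 0.06, adjusted p = 0.529) or TNFAIP3 (adjusted p = 0.0589). At that step 30.6% of all genes tested had both LY500307 libraries above both vehicle libraries. NFKB1 and NFKBIA overlapped between the 2 control groups, and RELA and RELB overlapped between the 2 knockout groups. REL and BIRC2 followed another order, lowest in control cells with LY500307, then control cells with vehicle, knockout cells with LY500307 and knockout cells with vehicle, with overlap between the 2 control groups in both genes, an order found in 9.91% of all genes tested. NFKBIE alone was lowest in knockout cells with vehicle and highest in control cells with LY500307, an order found in 3.36% of all genes tested. The highest group mean was 3.93 times the lowest for BIRC3, 2.61 times for TNFAIP3, 2.39 times for RELB, 1.80 times for NFKB2, 1.76 times for NFKBIA, 1.504 times for BIRC2, and between 1.22 and 1.41 times for RELA, NFKBIE, NFKB1 and REL.

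Levels of different genes can be compared only per length, here as CPM per kilobase of the canonical transcript, which may differ from the transcript the authors counted. On this scale the mean level of BIRC2 was 91.8 in knockout cells with LY500307, 103 in knockout cells with vehicle, 68.7 in control cells with LY500307 and 71.6 in control cells with vehicle. RELA was the most abundant subunit on the same scale, below BIRC2 in all groups but control cells with LY500307, with mean levels of 80.6, 76.2, 69.0 and 66.04 in the same groups, while REL stayed between 0.214 and 0.302. As a share of the summed level of the 5 subunits, RELA made up 61.3% and 62.3% in knockout cells with vehicle, against 69.4% and 68.4% in control cells with vehicle. The RELA share was thus lower in both knockout libraries although RELA itself was slightly higher. NFKB2 made up 20.7% and 19.96% of the subunits in knockout cells with vehicle, against 14.9% and 15.4% in control cells with vehicle. RELB made up 6.003% and 5.775% in knockout cells with vehicle, against 3.30% and 3.37% in control cells with vehicle. The subunits of the noncanonical branch thus held a larger share of the subunit RNA in the knockout libraries. The ratio of NFKBIA to RELA on this scale was 0.311 and 0.297 in knockout cells with vehicle, against 0.194 and 0.230 in control cells with vehicle. The level of BIRC2 was 25.7 and 28.7 times that of BIRC3 in knockout cells with vehicle, against 61.6 and 56.4 times in control cells with vehicle. With LY500307 the same ratio was 19.1 and 19.3 in knockout cells and 39.0 and 35 in control cells, so the balance between the paralogues moved towards BIRC3 with either factor. Shares and ratios are descriptions with no test of their own.

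**Figure D4:**
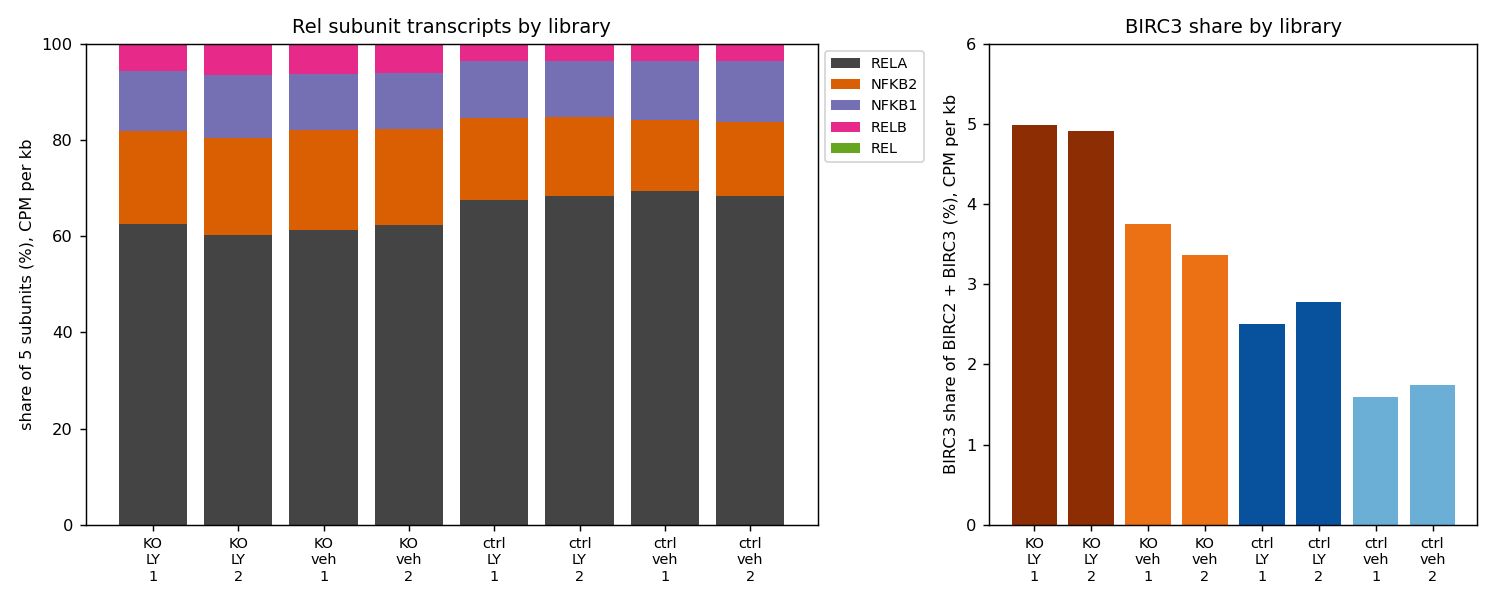
Left, share of each subunit in the summed CPM per kilobase of the 5 subunits in each library, with RELA between 60.2% and 69.4% and REL too thin to be seen. Right, BIRC3 as a percentage of BIRC2 and BIRC3 together on the same scale, 4.99% and 4.92% in knockout cells with LY500307 (KO LY), 3.75% and 3.37% in knockout cells with vehicle (KO veh), 2.50% and 2.78% in control cells with LY500307 (ctrl LY) and 1.60% and 1.74% in control cells with vehicle (ctrl veh).

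The rest of the pathway was read from gene lists, in the same comparison of knockout with control cells under vehicle, with all-gene figures of 30.7% called higher and 33.3% called lower. Of the 4 other IkB proteins tested, 2 were higher and 1 lower. NFKBIB, a further cytoplasmic IkB, averaged 20.3 ± 0.0424 CPM in knockout cells with vehicle and 30.4 ± 1.04 CPM in control cells with vehicle (SD, n = 2 each, log2 fold change -0.59, adjusted p = 2.7e-07), and NFKBIZ, a nuclear IkB, averaged 16.8 ± 1.37 and 11.3 ± 0.205 CPM in the same groups (adjusted p = 2.03e-05). Of the 6 IKK kinases and NIK, 1 was higher and 2 were lower. IKBKB, the catalytic IKK of the classical branch, averaged 55.2 ± 2.54 CPM in knockout cells with vehicle and 79.2 ± 0.764 CPM in control cells with vehicle (log2 fold change -0.52, adjusted p = 5.49e-09), which was -0.28 with its arm's median removed (adjusted p = 0.000267). MAP3K14, the NIK gene, averaged 31.9 ± 0.163 CPM in knockout cells with vehicle and 39.1 ± 4.19 CPM in control cells with vehicle (adjusted p = 0.00194), a call lost without the second control library (adjusted p = 0.112) and with its chromosome arm's median removed (adjusted p = 0.244). CHUK, the kinase that acts with NIK, was the 1 called higher (log2 fold change 0.15), and its call was lost in the same settings (adjusted p = 0.153 and 0.101) and without the second knockout library (adjusted p = 0.132). Of the 15 receptor-proximal adaptors and kinases, 6 were higher and 4 lower, with a median log2 fold change of 0.08. IRAK2, a kinase of interleukin-1 and Toll-like receptor signalling, averaged 18.1 ± 1.03 CPM in knockout cells with vehicle and 7.87 ± 1.23 CPM in control cells with vehicle (log2 fold change 1.196, adjusted p = 4.63e-11). MAP3K7, the TAK1 kinase upstream of IKK, averaged 66.9 ± 3.51 CPM in knockout cells with vehicle and 88.2 ± 2.95 CPM in control cells with vehicle (log2 fold change -0.40, adjusted p = 4.83e-07). Of the 12 ubiquitin enzymes and partners, 5 were higher and 3 lower. RNF11 and TAX1BP1, both partners of the TNFAIP3 protein, had log2 fold changes of 0.60 and 0.51. RNF11 was at 0.31 with its arm's median removed. FAM105B, the gene of the deubiquitinase OTULIN, averaged 20.4 ± 0.127 CPM in knockout cells with vehicle and 41.9 ± 4.41 CPM in control cells with vehicle (log2 fold change -1.04, adjusted p = 7.19e-13), which was -0.26 with its arm's median removed.

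Of the 10 receptor genes tested, 2 were higher and 5 lower in knockout cells with vehicle, with a median log2 fold change of -0.25. TLR4, the lipopolysaccharide receptor gene, had 0 counts over the 2 libraries of knockout cells with vehicle and 136 counts over those of control cells with vehicle. TNFRSF12A, the TWEAK receptor that feeds the noncanonical branch, averaged 137 ± 3.25 CPM in knockout cells with vehicle and 231 ± 3.82 CPM in control cells with vehicle (log2 fold change -0.75), which was -0.09 (adjusted p = 0.0895) with its arm's median removed. Of the 5 ligands tested, 2 were higher and 0 lower. IL1A averaged 5.26 ± 0.225 CPM in knockout cells with vehicle and 0.490 ± 0.0298 CPM in control cells with vehicle (log2 fold change 3.41, adjusted p = 3.73e-13). IL1B averaged 96.5 ± 2.34 CPM in knockout cells with vehicle and 71.5 ± 2.13 CPM in control cells with vehicle (log2 fold change 0.43, adjusted p = 2.28e-08), which was 0.10 (adjusted p = 0.104) with its arm's median removed. TNF had no count in either of these groups.

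Of 21 tested NF-kB target genes outside the set, 10 were higher and 5 lower in knockout cells with vehicle, with a median log2 fold change of 0.03. ICAM1, an adhesion molecule, averaged 100 ± 1.37 CPM in knockout cells with vehicle and 55.2 ± 1.03 CPM in control cells with vehicle (log2 fold change 0.86, adjusted p = 9.67e-15), which was 0.55 with its arm's median removed (adjusted p = 8.85e-10). IER3, an immediate early gene, averaged 142 ± 3.47 CPM in knockout cells with vehicle and 92.3 ± 0.389 CPM in control cells with vehicle (adjusted p = 1.67e-12). VCAM1, the adhesion molecule often induced beside ICAM1, went the opposite way, with 2 counts in all in knockout cells with vehicle and 1646 in control cells with vehicle. The targets thus included large changes in both directions. Of the 3 other IAP family genes tested, 2 were lower. BIRC5, the survivin gene of dividing cells, averaged 99.1 ± 3.03 CPM in knockout cells with vehicle and 196 ± 4.95 CPM in control cells with vehicle (log2 fold change -0.99, adjusted p = 2e-18). XIAP, a direct caspase inhibitor, had a log2 fold change of -0.24 (adjusted p = 0.00338), a call lost without the second knockout library (adjusted p = 0.0806) and with its arm's median removed (adjusted p = 0.0506).

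**Figure D5:**
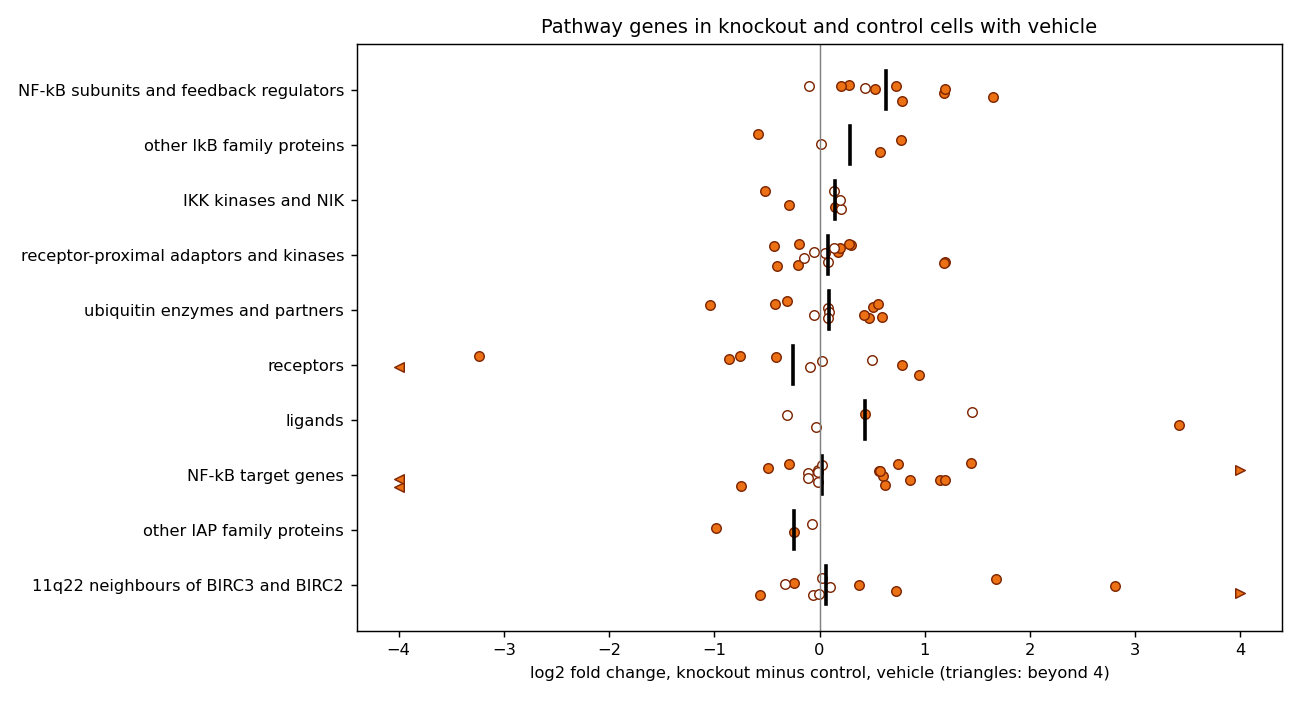
Log2 fold changes of the genes of each list, knockout minus control with vehicle, with 1 point per tested gene, filled where the adjusted p is under 0.05, and a black line at the median of the list. Triangles are values beyond 4 in either direction. The medians run from -0.25 for the receptors to 0.63 for the subunits and feedback regulators.

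With LY500307 in control cells, 12.3% of all genes tested were called higher and 14.0% lower. Counts were 1 higher and 1 lower of 4 other IkB proteins, 1 higher and 0 lower of 6 IKK kinases and NIK, 3 higher and 4 lower of 15 adaptors and kinases, and 3 higher and 0 lower of 12 ubiquitin enzymes and partners. They were 2 higher and 0 lower of 10 receptors, 2 higher and 0 lower of 5 ligands, 5 higher and 2 lower of 21 targets, and 0 higher and 3 lower of 3 other IAP genes. Some of these calls were not stable. With DESeq2, the receptor gene IL1R1 (adjusted p = 0.066), NFKBIB (0.059), BCL3 (0.11) and XIAP (0.0591) missed the threshold. The other receptor called, TLR3, had 18 counts over the vehicle libraries and 66 over the LY500307 libraries. Its log2 fold change lay between 0.96 and 2.74 over the libraries left out. IL1B averaged 128 ± 0.919 CPM in control cells with LY500307 and 71.5 ± 2.13 CPM in control cells with vehicle (adjusted p = 1.88e-13). IL8, the neutrophil chemokine gene also called CXCL8, averaged 406 ± 40.9 CPM in control cells with LY500307 and 308 ± 18.0 CPM in control cells with vehicle (adjusted p = 8.12e-07). IER3 averaged 118 ± 5.73 CPM in control cells with LY500307 and 92.3 ± 0.389 CPM in control cells with vehicle (adjusted p = 6.96e-06). TNIP1, whose product works with the TNFAIP3 protein, averaged 188 ± 7.99 CPM in control cells with LY500307 and 161 ± 3.32 CPM in control cells with vehicle (adjusted p = 0.001). All 4 were higher in both LY500307 libraries. IRAK1, a kinase of the interleukin-1 receptor complex, was lower, at 270 ± 7.64 CPM in control cells with LY500307 and 329 ± 0.919 CPM in control cells with vehicle (adjusted p = 2.18e-05). TRAF3, which acts with BIRC2 and BIRC3 against NIK, averaged 52.3 ± 0.785 CPM in control cells with LY500307 and 64.9 ± 1.499 CPM in control cells with vehicle (adjusted p = 0.000404). BIRC5 averaged 165 ± 2.33 CPM in control cells with LY500307 and 196 ± 4.95 CPM in control cells with vehicle (adjusted p = 0.000251).

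BIRC3 and BIRC2 lie side by side on chromosome 11, at 102188215–102210134 and 102217942–102249401 (GRCh37), and their neighbourhood moved unevenly. Of 18 neighbouring genes listed, 12 were tested, and 5 were higher and 2 lower in knockout cells with vehicle, with a median log2 fold change of 0.06. YAP1, the growth regulator next to BIRC3, averaged 716 ± 14.7 CPM in knockout cells with vehicle and 845 ± 11.8 CPM in control cells with vehicle (log2 fold change -0.24, adjusted p = 4.26e-06). TMEM123, on the other side of BIRC2, averaged 988 ± 5.16 CPM in knockout cells with vehicle and 1032 ± 44.6 CPM in control cells with vehicle (adjusted p = 0.196). These 2, the nearest listed genes tested on either side, were thus not called higher in knockout cells, but other neighbours were. KIAA1377 averaged 31.4 ± 1.51 CPM in knockout cells with vehicle and 18.95 ± 1.85 CPM in control cells with vehicle (log2 fold change 0.73, adjusted p = 4.25e-09). MMP1, MMP10 and MMP12 were also called higher, and TRPC6 was called lower. Whether a change of the region played a part was not tested. MMP3, a matrix protease gene farther along, averaged 2429 ± 9.90 CPM in knockout cells with vehicle and 33.0 ± 2.91 CPM in control cells with vehicle (log2 fold change 6.20, adjusted p = 2.21e-35). The median of all 483 tested genes of arm 11q was -0.04.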

How the data were processed

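The authors deposited whole-number read counts per gene symbol, 1 file for each of 8 libraries. Per the submitters' processing notes they used bcl2fastq, TopHat2 2.0.8b and HTSeq on hg19, and per the labels' protocols the reads were single-end from a TruSeq kit. The sources used here do not give the strand setting of the counting, but no member overlaps another counted gene. Per the series' design text, reads of duplicates were combined, yet paired files differ (chi-square per degree of freedom 3.12 to 4.44), so all 8 were kept. Summary entries were left out of library sizes (no feature 10.7% to 12.8%, ambiguous 0.811% to 0.861% of uniquely aligned reads). No sample column was left out (0 unused).

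From the counts, edgeR 4.0.16 (limma 3.58.1, R 4.3.3) kept 13498 of 23228 genes with filterByExpr, scaled by TMM and fitted 1 quasi-likelihood model with a mean per group (4 residual and 30.1 prior degrees of freedom). Each of 6 comparisons was tested two-sided with glmQLFTest and Benjamini-Hochberg adjustment over all genes at 0.05. A standard error is the log2 fold change over the square root of F. On simulated counts for the knockout comparison with vehicle, run on 13498 genes, 33, 41, 50 and 50 of 50 genes changed 1.25-, 1.5-, 2- and 4-fold were recovered, and 17 unchanged genes were called. Those 17 were a larger share of the calls than the threshold of 0.05. Only these few genes were changed there, whereas the real comparison called 30.7% of genes higher and 33.3% lower. The simulation therefore cannot give the error rate of the real comparison. CPM are counts over the TMM-scaled library size, and intervals are at the 95% level. Alternatives were DESeq2 1.42.0, limma-voom, library totals, other filters, a replicate block, each library left out, and removal of chromosome arm medians. The members and gene lists were chosen with earlier results of these data known. All 10 members are named. From each list, up to 3 genes with the smallest p in the knockout comparison with vehicle and up to 2 in the LY500307 comparison in control cells could be named, and any tested 11q22 neighbour. TNF and the markers PAX8, EPCAM, MUC16, CD3E, PECAM1 and DCN were named after their values were seen, as levels only. Positions and lengths came from GENCODE 44 on GRCh37, with 19137 symbols found directly, 2188 through an older name and 1903 not found.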

Additional observations from a re-analysis of the deposited data

How the results depend on the processing

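The counts of members called in the knockout comparisons and with both factors together stayed within 1.5 times of the reported ones under every alternative run, as did the counts of all genes called there. In the knockout comparison with vehicle, 168 of 170 member values kept their direction and their side of the threshold, and in that with LY500307 169 of 170 did. The LY500307 comparisons were less stable. In control cells library totals gave 2831 genes higher and 1011 lower, and leaving out each library gave 941 to 1871 higher and 1205 to 1940 lower, with 2 to 3 members higher. In knockout cells library totals gave 2288 genes higher and 953 lower, with 5 members higher and 0 lower, and DESeq2 gave 790 genes higher. Leaving out each library there gave 537 to 1217 genes higher and 885 to 1519 lower, with 1 to 2 members higher. For the interaction, no filter gave 248 genes lower, and leaving out each library gave 24 to 79 higher and 71 to 183 lower. Library totals moved the all-gene median of the comparison of both factors from -0.0061 to 0.0994.

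None of the values that changed sign passed the test in either setting. With library totals in control cells, REL was at 0.0191 and BIRC2 at 0.0143 for LY500307 against vehicle. Over the libraries left out, NFKBIE lay between -0.12 and 0.0239 in the knockout comparison with LY500307. For LY500307 in control cells, NFKB1 lay between -0.029 and 0.035, REL between -0.20 and 0.103, and NFKBIA between -0.064 and 0.17. RELB lay between -0.0428 and 0.17 for LY500307 in knockout cells. For the interaction over the libraries left out, RELA lay between -0.043 and 0.0603, RELB between -0.14 and 0.0775, REL between -0.20 and 0.0985, NFKBIA between -0.0902 and 0.15, and NFKBIE between -0.0308 and 0.12, and with a mean of at least 1 CPM as the filter RELA was at -0.0014. The cause of these changes was not tested.

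No source states that the replicate numbers pair the samples, and the main model did not pair them. Same-numbered libraries correlated weakly and positively, between 0.000614 and 0.07, in their deviations from the group means. Such values cannot decide whether the samples were paired. With the replicate block the interaction had 297 genes higher and 346 lower, against 71 and 147 without it, and TNFAIP3 with LY500307 in knockout cells was called (adjusted p = 0.0301). The 2 libraries per group and the 52 to 94 counts of REL limit what could be detected.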

Other observations

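Over the 8 libraries, the genes whose centred log2 CPM lay closest to BIRC3, among the 10414 genes averaging 5 CPM or more, were MUM1L1, ARHGEF3, GPNMB, CRTC1 and CTH, with root mean square differences of 0.0772, 0.106, 0.118, 0.119 and 0.121, against a range of 1.97 for BIRC3 itself. MUM1L1 averaged 27.9 ± 0.403 CPM in knockout cells with LY500307, 23.0 ± 0.815 CPM in knockout cells with vehicle, 12.2 ± 0.372 CPM in control cells with LY500307 and 7.55 ± 0.116 CPM in control cells with vehicle (SD, n = 2 each). GPNMB averaged 76.4 ± 4.25, 72.6 ± 1.18, 33.6 ± 1.73 and 23.0 ± 0.194 CPM in the same groups. Among the members themselves, the closest pairs by the same measure were REL with BIRC2 at 0.0867, NFKB2 with NFKBIA at 0.0921, NFKB1 with RELA at 0.103 and RELB with TNFAIP3 at 0.108.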
